A study of Homo sapiens with 6 samples.

Results

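Integrins and laminins are the receptor and ligand sides of epithelial attachment to the basement membrane, and their subunits were taken from the gene symbols of the count table as all integrin alpha (ITGA), integrin beta (ITGB) and laminin (LAMA, LAMB, LAMC) genes. This gave 38 of 38100 genes, namely 18 integrin alpha, 8 integrin beta, 5 laminin alpha, 4 laminin beta and 3 laminin gamma genes. The RNA came from HK2 cells, an immortalized human proximal tubular epithelial line labelled wild type, and all 6 libraries were from cells treated with TGF-β1. In the AdCtrl group (3 libraries) the cells carried an empty adenovirus, and in the AdSirt4 group (3 libraries) an adenovirus expressing SIRT4, a mitochondrial sirtuin. No library without TGF-β1 or without virus was analysed here, so every difference below is between the 2 viruses in TGF-β1-treated cells of 1 line. The study's checklist describes its in vitro replicates as technical, while its methods speak of at least 3 independent experiments for all data. Which holds for these libraries is not stated, so the p-values may measure only the spread between libraries of the same culture system.

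An integrin is a heterodimer of 1 alpha and 1 beta subunit in the plasma membrane, and the pairing sets which ligand is bound. A laminin is a trimer of 1 alpha, 1 beta and 1 gamma chain, which polymerizes into the scaffold of the basement membrane beneath epithelia. In tubular epithelium the laminin-binding integrins anchor the cell to this membrane, the ITGAV pairs with ITGB6 and ITGB8 are known to bind latent TGF-β, and the collagen and fibronectin receptors attach to interstitial matrix.

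Total counts ranged from 42102861 to 53677241 in the AdCtrl libraries and from 41537353 to 85684748 in the AdSirt4 libraries. SIRT4 was at 0.573, 1.11 and 1.11 CPM (read counts relative to the library total, scaled by TMM) in AdCtrl replicates 1 to 3 and at 51.2, 92.7 and 84.0 CPM in AdSirt4 replicates 1 to 3, which matched the labels, although the counts do not separate viral from cellular SIRT4 transcript. AdSirt4 replicate 1 stood apart. Its log2 ratio to AdSirt4 replicates 2 and 3 fell with transcript length, with a Spearman rho of -0.570 and -0.572 across genes, against -0.168 between replicates 2 and 3 and -0.203 to -0.0882 between AdCtrl libraries. Fold changes that moved by over 1.5 times without this library are given both ways. Of 16 tubular epithelial markers, 11 had a mean FPKM (fragments relative to transcript length and library total, a level corrected for gene length) of at least 1, among them PAX8 and KRT18. The proximal brush-border enzyme GGT1 was at 75.8 FPKM, while LRP2, CUBN and AQP1 were under 0.1 FPKM. Also below 1 FPKM were PAX2 and the cadherin CDH1, at 0.293 and 0.113 mean FPKM. Of 8 endothelial markers 0 and of 7 fibroblast markers 2 (LUM and COL1A1) reached 1 FPKM, with a summed fibroblast level of 8.92 to 9.94 FPKM in AdCtrl and 8.66 to 9.52 FPKM in AdSirt4.

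Most of the subunits were expressed. By edgeR's expression filter 30 of the 38 were tested, 7 had some counts but too few to test, and 1, ITGA8, had no more than 3 counts in any library. Of all 38, 25 had a mean FPKM of at least 1 and 16 of at least 10. The 7 with too few counts were the collagen receptor subunits ITGA10 and ITGA11, the leukocyte subunits ITGAD, ITGAL and ITGB7, and the laminin chains LAMA4 and LAMB4, each at no more than 0.0343 mean FPKM. ITGA8, which pairs with ITGB1, had counts of 2, 0 and 0 in AdCtrl and 0, 3 and 0 in AdSirt4. A count of 0 allowed up to 0.0350 to 0.0722 CPM of the library total before TMM scaling, depending on the library. Lower expression was therefore not detectable at this depth. Such limits cover counting error only.

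Among the beta subunits, ITGB1, the partner of most alpha subunits, had the highest mean level at 297 FPKM. It was at 308, 283 and 315 FPKM in AdCtrl and at 284, 289 and 301 FPKM in AdSirt4, and the groups overlapped. It made up 73.0% ± 0.714 (SD, n = 3) of the summed beta-subunit FPKM in AdCtrl and 70.5% ± 3.13 (SD, n = 3) in AdSirt4. ITGB5, ITGB8, ITGB3 and ITGB6, other betas that pair with ITGAV, followed at 31.2, 30.2, 26.1 and 21.3 mean FPKM. The range of each over the libraries overlapped that of its neighbour in this order, so the order was not separated. ITGB4, the hemidesmosomal beta subunit, was at 5.13 mean FPKM and ITGB2, the beta subunit of leukocyte integrins, at 3.21 mean FPKM.

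Among the alpha subunits, ITGAV was highest at 136 mean FPKM. It was at 134, 120 and 146 FPKM in AdCtrl and at 110, 140 and 165 FPKM in AdSirt4, with overlapping groups. ITGA3, which with ITGB1 forms a laminin receptor, was at 107, 93.4 and 110 FPKM in AdCtrl and at 69.0, 101 and 109 FPKM in AdSirt4, also overlapping. The fibronectin receptor subunit ITGA5 came next at 25.8 mean FPKM. ITGA6, ITGAE, ITGA7, ITGA2, ITGA1 and ITGAX lay between 1.3 and 4.45 mean FPKM, and ITGA4, ITGA9, ITGA2B and ITGAM at or below 0.270 mean FPKM. The platelet subunit ITGA2B and the leukocyte subunit ITGAM were among the lowest, while the leukocyte subunits ITGAE and ITGAX were above 1 FPKM. Of 10 leukocyte markers 1 (CD14) and of 5 platelet markers 0 reached a mean of 1 FPKM. Summed leukocyte marker FPKM was 1.57 to 1.67 in AdCtrl and 1.26 to 1.66 in AdSirt4, and summed platelet marker FPKM 0.110 to 0.253 and 0.258 to 0.484.

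**Figure D1:**
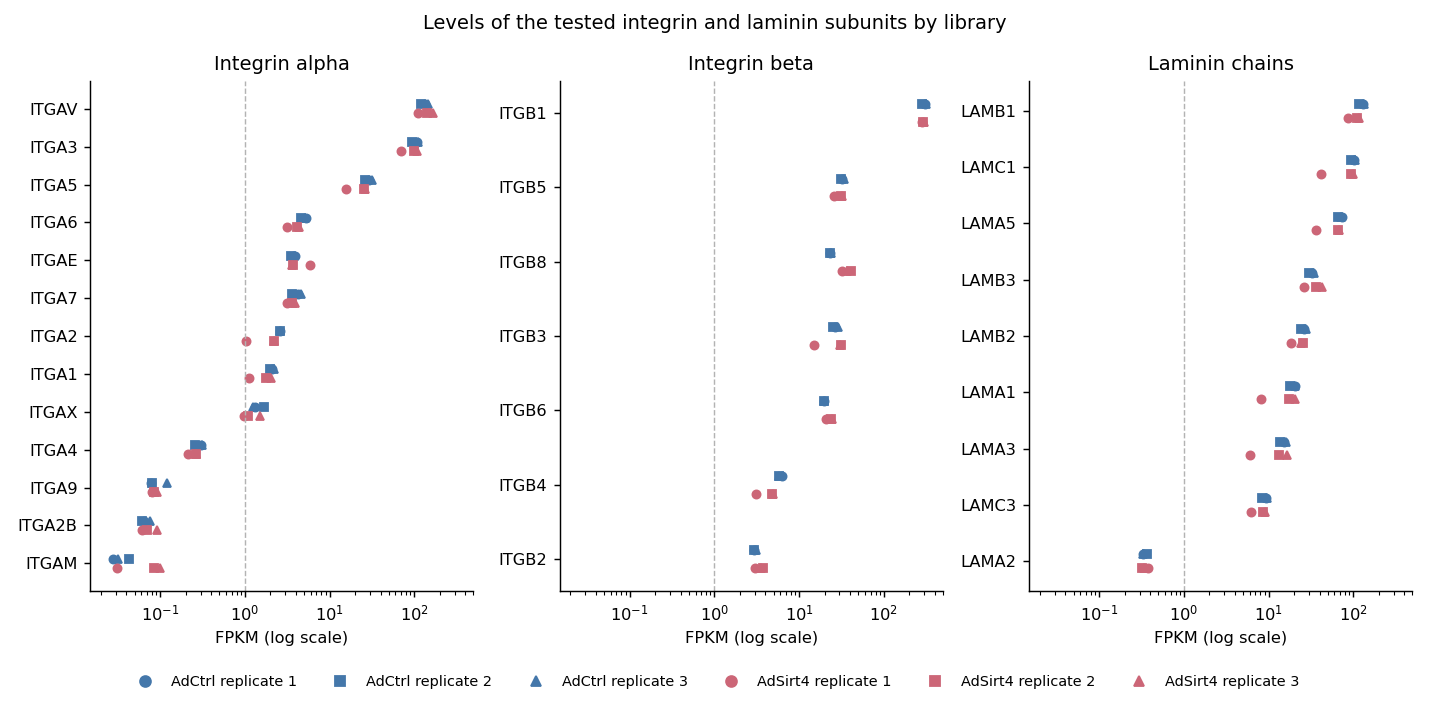
FPKM (log scale) of 29 of the 30 tested subunits in each of the 6 libraries, with blue symbols for AdCtrl, red for AdSirt4 and 1 symbol shape per replicate number. ITGB1, ITGAV and LAMB1 lie highest in their panels, the dashed line marks 1 FPKM, and AdSirt4 replicate 1 (red circles) lies left of the other libraries for most laminin chains.

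The laminin chains were dominated by LAMB1, LAMC1 and LAMA5 at 116, 89.5 and 63.9 mean FPKM. LAMB1 was at 129, 117 and 134 FPKM in AdCtrl and at 86.8, 110 and 118 FPKM in AdSirt4. LAMC1, the gamma chain of most laminins, was at 103, 93.8 and 106 FPKM in AdCtrl and at 41.4, 94.2 and 99.3 FPKM in AdSirt4. LAMA5 was at 74.3, 66.1 and 72.6 FPKM in AdCtrl and at 36.0, 66.6 and 67.9 FPKM in AdSirt4. For LAMC1 and LAMA5 the low AdSirt4 level was that of replicate 1, and the other AdSirt4 libraries lay within the AdCtrl range of FPKM. LAMB3 and LAMA3, chains of the epithelial laminin bound by ITGA6-ITGB4 and ITGA3-ITGB1, were at 33.8 and 13.5 mean FPKM. LAMB2, LAMA1 and LAMC3 were at 24.3, 17.5 and 8.54 mean FPKM and LAMA2, the alpha chain of muscle laminin, at 0.343 mean FPKM.

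Read as complexes, 13 of 24 known integrin pairs had both subunits at a mean of at least 1 FPKM. This held for 4 of 4 laminin-binding pairs, 2 of 4 collagen-binding pairs, 6 of 8 pairs that recognize the RGD motif of fibronectin, vitronectin or latent TGF-β, and 1 of 8 leukocyte or other pairs. Of 12 laminin trimers, 7 had every chain at this level. The counts say which transcripts were present together in the culture, and the assembly of the proteins was not measured.

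In the comparison of AdSirt4 with AdCtrl, which asks what SIRT4 overexpression changed under TGF-β1, the subunit with the lowest p was ITGB8, whose level was 1.6-fold higher. ITGB6 was also higher in every AdSirt4 library, and the hemidesmosomal pair ITGA6 and ITGB4 was lower in every AdSirt4 library. None of the 30 tested subunits passed an adjusted p of 0.05 by edgeR's quasi-likelihood test with Benjamini-Hochberg adjustment over all 17720 genes, and neither did most genes, as 2 of 17720 (0.0113%) were called, or 1 with replicate number as a block. At an unadjusted p under 0.05 there were 4 of 30 subunits, against 7.93% of all genes tested. That count was 1 without AdCtrl replicate 1, 2 without AdCtrl replicate 2 and 2 without AdCtrl replicate 3. It was 3 without AdSirt4 replicate 2 and 4 without AdSirt4 replicate 3. The share over all genes is not given for these fits, so these counts have no background and are description only. Without AdSirt4 replicate 1 the count was 13 of 31 subunits tested, where 4446 of 18287 genes passed the same threshold. DESeq2 called 1 subunit, ITGB8, at an adjusted p of 1.13e-06, where it called 1.16% of all genes. The groups did not overlap in CPM for 3 subunits that were higher in AdSirt4, against 9.66% of all genes tested, and for 9 that were lower, against 9.77%. On the FPKM scale the groups of ITGB8, ITGB6, ITGA6, ITGB4 and ITGA2 did not overlap, and those of the other 7 did.

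ITGB8 lies on chromosome 7 (chr7:20329766-20415754, RefSeq gene on GRCh38.p14). It was at 229, 245 and 236 CPM in AdCtrl and at 345, 416 and 375 CPM in AdSirt4. Every AdSirt4 library lay above every AdCtrl library, replicate 1 included. The means were 237 ± 7.62 and 378 ± 35.7 CPM (SD, n = 3 each), and the log2 fold change was 0.68 (SE 0.111, edgeR adjusted p = 0.307 over all genes). Over the alternatives the adjusted p ranged from 1.13e-06 to 0.971. Without AdSirt4 replicate 1 the log2 fold change was 0.74 (SE 0.0591), with an edgeR adjusted p of 0.000126.

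ITGB6 (chr2:160099671-160200272, RefSeq gene on GRCh38.p14), whose protein is restricted largely to epithelia, was at 102, 103 and 97.0 CPM in AdCtrl and at 117, 122 and 123 CPM in AdSirt4. Again the groups did not overlap, and the 3 AdSirt4 libraries lay close together. The log2 fold change was 0.26 (SE 0.0855, edgeR adjusted p = 0.558). Without AdSirt4 replicate 1 it was 0.28, with an edgeR adjusted p of 0.0133. ITGB2, the third beta subunit whose groups did not overlap upward, was at 9.53, 9.98 and 9.79 CPM in AdCtrl and at 10.6, 12.2 and 11.4 CPM in AdSirt4 (log2 fold change 0.22, edgeR adjusted p = 0.655). ITGB2 shares exon bases with ITGB2-AS1 on the other strand, and the latter was at 1.52 to 2.52 CPM in AdCtrl and 3.41 to 4.26 CPM in AdSirt4. The library kit is not stated to keep strand, so reads from a gene and its antisense partner cannot be told apart.

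The stretch before the start of ITGB6, whose groups did not overlap on either scale, is shown for its sequence context. It is the part of the RefSeq promoter window (GRCh38.p14, chr2:160200314-160200522, minus strand) that lies before the first GENCODE v29 exon base of the gene, and it is in lower case throughout because it held none of the motifs described next.
ITGB6: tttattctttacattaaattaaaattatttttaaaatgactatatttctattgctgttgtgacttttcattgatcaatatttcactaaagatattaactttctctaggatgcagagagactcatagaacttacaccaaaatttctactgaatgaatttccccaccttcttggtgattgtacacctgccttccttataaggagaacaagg

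The RefSeq promoter table had an entry for 26 of the 38 subunits, and the 250 bases before 1 annotated start of each gene were searched for 4 motifs on both strands. For 4 of the 26 (ITGA4, ITGB8, LAMA3 and LAMA4) this start lies inside the full RefSeq span of the gene, since other transcripts start further upstream. The GC box GGGCGG occurred in 13 of 26 subunits and in 42.3% of all 27305 promoters. The SMAD element CAGAC occurred in 12 of 26 and in 37.8% of all, the AP-1 motif TGANTCA in 1 of 26 (LAMA3) and in 6.60% of all, and the TATA box TATAAA in 1 of 26 (ITGA6) and in 11.1% of all. The window of ITGB8 held 2 GC boxes and 1 SMAD element, and that of ITGB6 held none of the 4 motifs. These are matches of letters, and binding was not measured.

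ITGA6 and ITGB4 encode the laminin receptor of hemidesmosomes. ITGA6 was at 34.8, 30.7 and 32.5 CPM in AdCtrl and at 22.4, 26.6 and 27.9 CPM in AdSirt4, with a log2 fold change of -0.35 (SE 0.116, edgeR adjusted p = 0.565). ITGB4 was at 40.2, 38.1 and 36.3 CPM in AdCtrl and at 21.5, 31.1 and 31.3 CPM in AdSirt4, with a log2 fold change of -0.45 (SE 0.159, edgeR adjusted p = 0.599). In both genes every AdSirt4 library lay below every AdCtrl library, and AdSirt4 replicate 1 was the lowest. Without that replicate the log2 fold changes were -0.27 for ITGA6 and -0.30 for ITGB4, with edgeR adjusted p of 0.0468 and 0.0252. The FPKM ratio of ITGB4 to ITGA6 was 1.19 ± 0.0612 in AdCtrl and 1.10 ± 0.113 in AdSirt4 (SD, n = 3 each), with overlapping ranges.

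The collagen receptor subunits and the fibronectin receptor subunit were lower without reaching an unadjusted p of 0.05. ITGA2 was at 23.1, 23.6 and 22.3 CPM in AdCtrl and at 10.01, 19.6 and 19.5 CPM in AdSirt4 (log2 fold change -0.48, edgeR adjusted p = 0.686). ITGA1 was at 25.6, 24.7 and 25.9 CPM in AdCtrl and at 14.99, 21.4 and 24.3 CPM in AdSirt4 (log2 fold change -0.33, edgeR adjusted p = 0.701), and its exons share bases with PELO. ITGA5 was at 139, 130 and 147 CPM in AdCtrl and at 80.8, 123 and 126 CPM in AdSirt4 (log2 fold change -0.34, edgeR adjusted p = 0.692). In all 3 genes AdSirt4 replicate 1 was far below its group, and the other AdSirt4 libraries lay under the AdCtrl range. Without that replicate the log2 fold changes were -0.24 for ITGA2, -0.16 for ITGA1 and -0.17 for ITGA5, with edgeR adjusted p of 0.0623, 0.2098 and 0.114. ITGA4, a subunit of receptors for VCAM-1 and fibronectin, was at 2.35, 2.05 and 2.34 CPM in AdCtrl and at 1.82, 2.04 and 2.01 CPM in AdSirt4, and ITGB5 was at 163, 163 and 162 CPM against 141, 157 and 160 CPM. Their groups were separated by a narrow margin, and the log2 fold changes were -0.20 and -0.09, or -0.16 and -0.04 without AdSirt4 replicate 1.

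**Figure D2:**
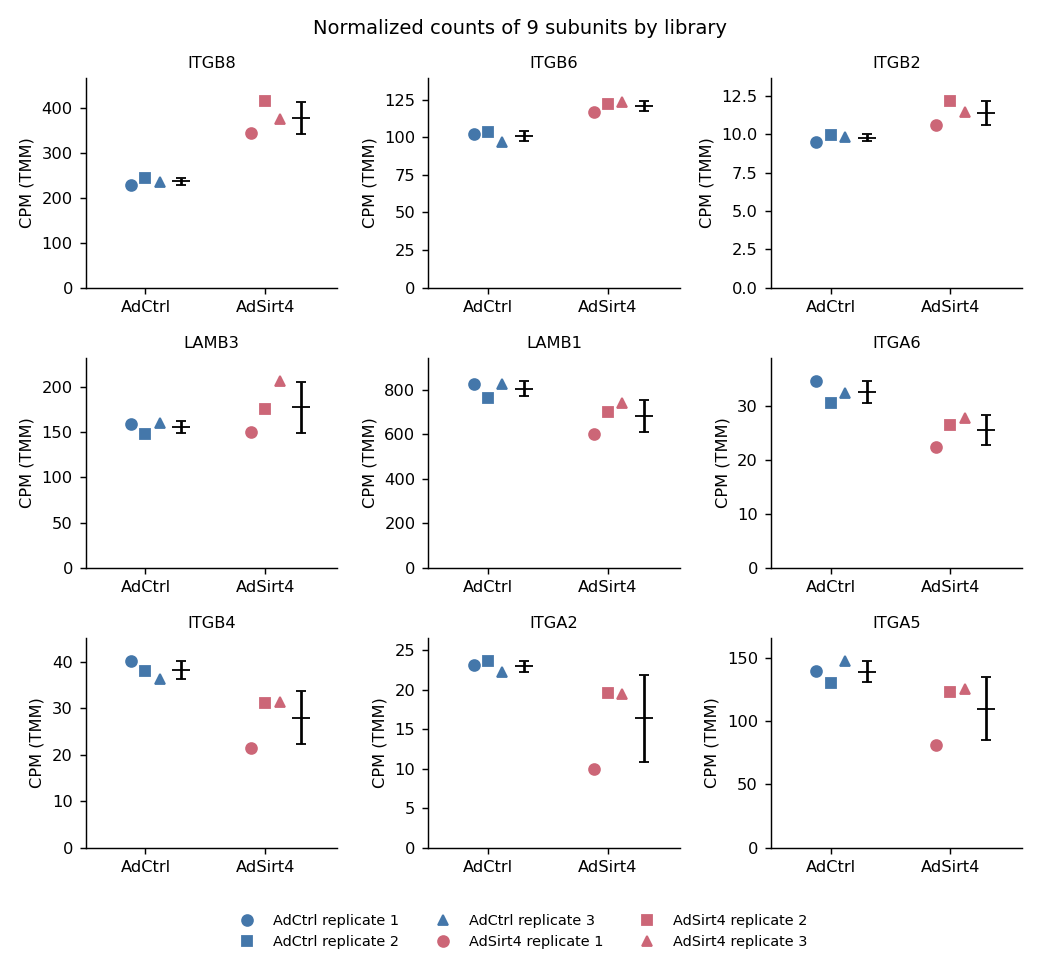
TMM-scaled CPM of 9 subunits in the 6 libraries, on axes that start at 0, with 1 symbol shape per replicate number and black marks for the group mean and SD (n = 3). ITGB8 lies at 229 to 245 CPM in AdCtrl and at 345 to 416 CPM in AdSirt4 without overlap, while in ITGA2 and ITGA5 replicate 1 (red circles) lies far below the other AdSirt4 libraries.

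Among the abundant integrin subunits, ITGB1 was at 1311, 1236 and 1286 CPM in AdCtrl and at 1305, 1222 and 1260 CPM in AdSirt4, a log2 fold change of -0.02 (SE 0.112). For ITGAV the log2 fold change was 0.08 (SE 0.149), for ITGA3 it was -0.12 (SE 0.155) and for ITGB3 it was -0.06 (SE 0.233). Without AdSirt4 replicate 1 these were -0.05 for ITGB1, 0.18 for ITGAV, 0.01 for ITGA3 and 0.17 for ITGB3. Of the remaining tested integrin subunits, ITGAM, ITGAE, ITGA2B, ITGAX, ITGA9 and ITGA7 had log2 fold changes of 0.98, 0.26, 0.21, -0.02, -0.08 and -0.18, with overlapping groups. Without AdSirt4 replicate 1 ITGAE was at -0.07 and ITGAX at 0.12 on that scale. ITGAM was at no more than 0.529 CPM in any library. ITGAE, whose exons share 427 bases with HASPIN on the other strand, was at 27.4 CPM in AdSirt4 replicate 1 and at 15.2 to 16.8 CPM in the other 5 libraries.

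Of the 10 tested laminin chains 0 had an unadjusted edgeR p under 0.05, and 7 of 10 log2 fold changes were below 0. The median was -0.21 for the laminins and -0.07 for the 20 integrins, against 0.02 for all genes tested. LAMB1 (825, 765 and 827 CPM in AdCtrl, 600, 702 and 739 CPM in AdSirt4) and LAMA5 (961, 876 and 903 CPM in AdCtrl, 503, 858 and 862 CPM in AdSirt4) were the chains whose groups did not overlap. Their log2 fold changes were -0.24 (edgeR adjusted p = 0.687) and -0.30 (edgeR adjusted p = 0.744), and without AdSirt4 replicate 1 they were -0.17 and -0.09. LAMC1, LAMA1 and LAMA3 had log2 fold changes of -0.34, -0.34 and -0.39, and in each the low value was that of AdSirt4 replicate 1. LAMC1 was at 404 CPM there and at 846 and 882 CPM in the other AdSirt4 libraries. Without this library the laminin median was -0.07 and the integrin median -0.04, and LAMC1, LAMA1 and LAMA3 stood at -0.07, -0.07 and -0.05. LAMB2, LAMC3 and LAMA2 had log2 fold changes of -0.18, -0.18 and 0.04, and of -0.10, -0.07 and -0.07 without it.

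LAMB3, a chain of the epithelial laminin of hemidesmosomes, had a log2 fold change above 0. It was at 159, 149 and 160 CPM in AdCtrl and at 151, 177 and 207 CPM in AdSirt4, so that replicate 1 lay within the AdCtrl range and the other AdSirt4 libraries above it (log2 fold change 0.19, SE 0.133, edgeR adjusted p = 0.738). Without AdSirt4 replicate 1 the log2 fold change was 0.29, with an edgeR adjusted p of 0.0283. Its trimer partner LAMA3 was at 182, 167 and 177 CPM in AdCtrl and at 62.3, 153 and 186 CPM in AdSirt4.

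Leaving out AdSirt4 replicate 1 changed the calls. edgeR then called 1227 of 18287 genes (6.71%) at an adjusted p under 0.05, and 6 of the 31 subunits it tested. Among these ITGB8, ITGB6 and LAMB3 were higher in AdSirt4, and ITGB4 and ITGA6 were lower. With 2 AdSirt4 libraries the lower spread rests on replicates 2 and 3 alone.

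**Figure D3:**
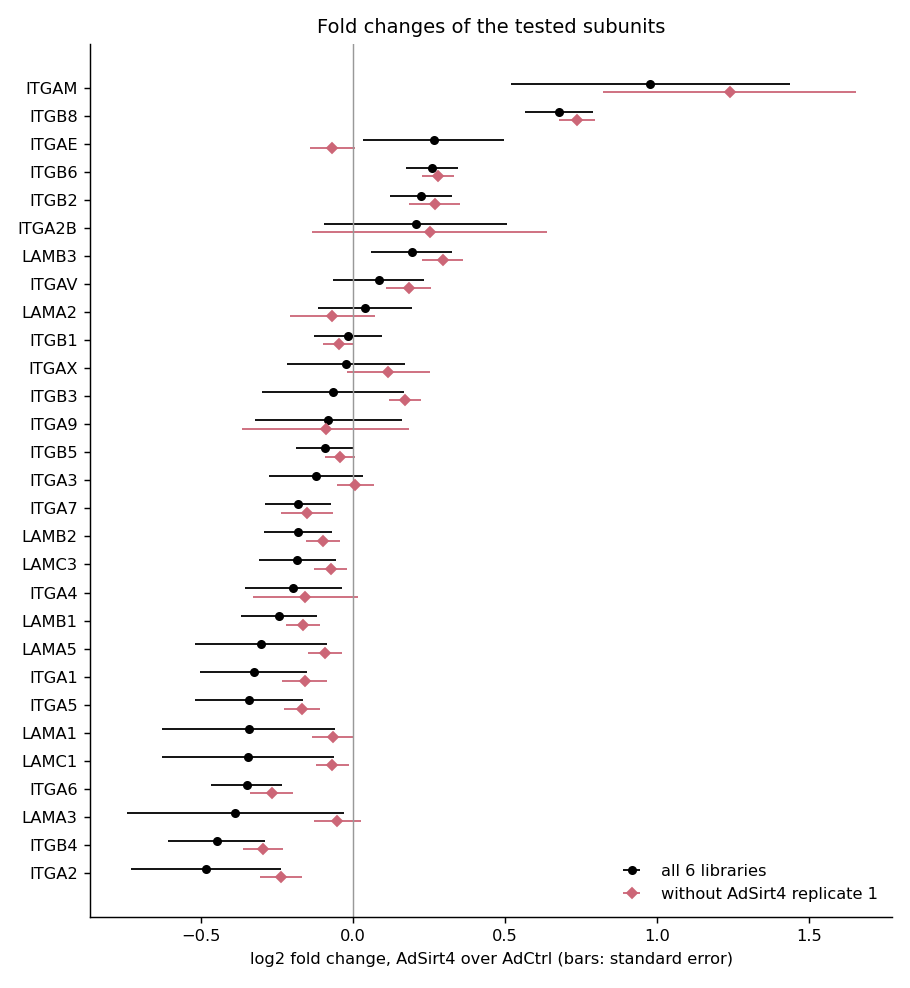
Log2 fold change (AdSirt4 over AdCtrl) with its standard error for 29 of the 30 tested subunits, in black with all 6 libraries and in red without AdSirt4 replicate 1. ITGB8 is at 0.68 and 0.74, while LAMA3 moves from -0.39 to -0.05.

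The subunits are long genes, with a median transcript length implied by the ratio of counts to FPKM of 6.47 kb against 3.64 kb for all genes tested. In AdSirt4 replicate 1, 26 of the 30 tested subunits were lower than in the mean of the other AdSirt4 libraries, with a median log2 ratio of -0.34 against -0.01 for all genes. Spearman's rho between this ratio and length was -0.39 across the 30 tested subunits and -0.586 across all 17565 tested genes with a length. Across the 25 subunits with a mean FPKM of at least 1 it was -0.656, a filter not applied to all genes. These points share the same libraries and are not independent. LAMA3 (11.6 kb) had a log2 ratio of -1.45 and LAMA1 (10.98 kb) of -1.10, while ITGB1 (4.27 kb) was at 0.07 and ITGB8, although 10.2 kb long, at -0.20. When the trend with length was removed from each library, 10 of 30 subunits had an unadjusted edgeR p under 0.05, against 13.9% of all genes. These were ITGB8, ITGB6 and LAMB3 above 0 and ITGA1, ITGA2, ITGA5, ITGA6, ITGB4, LAMB1 and LAMA5 below 0, which is 3 above and 7 below. With the replicate block added there were again 10 subunits, where 2461 of 17720 genes passed. Of the subunits 5 now lay above 0 and 5 below, as LAMB1 and LAMA5 dropped out and ITGAV was among those gained. What gave the replicate its length trend was not tested.

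Within classes, the share of the summed FPKM did not overlap between the groups for 16 of the 30 tested subunits. Of these, 7 had a higher share in AdSirt4 and 9 a lower share. Such shares have no counterpart over all genes, so the count has no background and is description only. Shares of a class sum to a fixed total, so they do not move independently. ITGB8, ITGAV and LAMB3 are given as examples chosen after their values were seen, without a test. ITGB8 made up 5.50, 6.00 and 5.60% of the beta-subunit FPKM in AdCtrl and 8.34, 9.71 and 8.60% in AdSirt4. ITGAV made up 46.2, 46.4 and 47.4% of the alpha-subunit FPKM in AdCtrl and 52.4, 49.4 and 51.8% in AdSirt4. LAMB3 made up 17.4, 17.5 and 17.6% of laminin beta FPKM in AdCtrl and 20.0, 21.2 and 23.2% in AdSirt4. In none of the 3 did the groups overlap, and AdSirt4 replicate 1 lay on the side of its group. Between single subunits, the FPKM ratio of LAMB3 to LAMB1 was 0.256 ± 0.00119 in AdCtrl and 0.333 ± 0.0296 in AdSirt4 (SD, n = 3 each), and that of ITGB8 to ITGB5 was 0.724 ± 0.0157 and 1.23 ± 0.0771.

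The genes around the subunits were read from 4 lists. Of 31 tested integrin adaptors, which link the beta tails to actin, 2 had an unadjusted edgeR p under 0.05, ZYX (log2 fold change 0.24) and BCAR1 (0.28), both higher, against 7.93% of all genes tested. Of 8 hemidesmosome and tetraspanin genes 1 did, the tetraspanin CD9, at 0.577 mean CPM in AdCtrl and 0.337 in AdSirt4. The hemidesmosome genes PLEC, DST and COL17A1 had log2 fold changes of -0.04, -0.22 and 0.41, with COL17A1 at only 0.0778 mean FPKM. Without AdSirt4 replicate 1 these were 0.22, 0.15 and 0.59. Of 16 other basement membrane genes and receptors 3 had an unadjusted edgeR p under 0.05. SDC4, a heparan sulfate co-receptor of integrins, was at 383, 433 and 426 CPM in AdCtrl and at 568, 551 and 580 CPM in AdSirt4 (log2 fold change 0.45, SE 0.106, edgeR adjusted p = 0.494), COL15A1 was at no more than 0.770 CPM (log2 fold change 1.59), and NID2, a linker of laminin and collagen networks, had a log2 fold change of -0.57, or -0.33 without AdSirt4 replicate 1. Of 13 integrin ligands 1 did, THBS1 (log2 fold change 0.35). None of these 4 lists had a member at an edgeR adjusted p under 0.05. Without AdSirt4 replicate 1 the lists had 0, 1, 4 and 3 such members, against 6.71% of all genes. With all libraries DESeq2 called 0, 0, 2 and 0 members, the 2 being higher in AdSirt4, against 1.16% of all genes. The list medians were -0.08, 0.13, -0.15 and -0.10 on the log2 scale, against 0.02 for all genes. Without AdSirt4 replicate 1 they were 0.0275, 0.0246, -0.0832 and 0.0006, against -0.0028 for all genes.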

How the data were processed

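RNA-seq was measured in 6 libraries of TGF-β1-treated HK2 cells, 3 with AdCtrl and 3 with AdSirt4, grouped by the labels. The authors deposited raw read counts per gene and FPKM values in tables of the whole series. Every column of values matched 1 sample, leaving 0 without one. The submitters' processing notes name fastp 0.21.0, HISAT2 2.1.0, StringTie 2.1.5, DESeq2 1.30.1 and hg38, and the FPKM unit was inferred from the values. All titles name HK2, although a cell line label numbers the lines differently. Total counts per library set the precision of each count.

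The deposited counts were scaled by TMM and fitted with edgeR 4.0.16 (quasi-likelihood test, R 4.3.3) on genes passing its expression filter at a minimum count of 10, with Benjamini-Hochberg adjustment over all genes tested and a threshold of 0.05. CPM values are TMM-scaled, except the limits given for a count of 0. Standard errors of edgeR fold changes, also in the figure, are the absolute log2 fold change over the square root of the test's F statistic. Levels between genes were compared in the deposited FPKM values only. Alternatives were DESeq2 1.42.0, other filters, limma 3.58.1 on log2(FPKM + 1) or log2(FPKM + 0.1), a replicate block, leaving out each library, and removal of a lowess trend (span 0.3) with transcript length. The length is counts over FPKM, scaled per library, and was within 5% between samples for 11758 of 15894 genes. The fits were also run on simulated counts with the same spread setting for every gene. A length trend in AdSirt4 replicate 1 was simulated only for edgeR with and without its removal. The outcome is not given here, so it is no support for the fits on these data.

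Same-numbered AdCtrl and AdSirt4 replicates deviated together (Pearson r across genes 0.178, 0.159 and 0.176), so the numbers, which come from the titles, may pair the samples. The main edgeR fit did not use this pairing, and the block was run as an alternative. With the block edgeR called 1 gene in place of 2. The log2 fold changes were then 0.67 for ITGB8, 0.26 for ITGB6, -0.35 for ITGA6 and -0.47 for ITGB4. Their edgeR adjusted p with the block were 0.639, 0.693, 0.686 and 0.680. No pair of libraries within a group agreed within counting noise.

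Values in each library are given for subunits with an unadjusted p under 0.05 or groups that do not overlap, and for the 3 highest by FPKM among integrin alpha, integrin beta and laminin genes. LAMB3, LAMA3 and ITGAE were added after their values were seen. From each list, genes with an unadjusted p under 0.01 (SDC4 and COL15A1) are named. ZYX, BCAR1, CD9, NID2, THBS1, PLEC, DST and COL17A1 were added after their values were seen. The subunits and lists were chosen with earlier results of these data known. Promoter windows (the first entry of each gene) and gene positions are from RefSeq GRCh38.p14, and exon overlaps from GENCODE v29. ITGA3, ITGA7, ITGA9, ITGAD, ITGAL, ITGAX, ITGB2, ITGB3, ITGB4, LAMA1 and LAMC3 had no promoter entry. The values of 1 subunit are counted in the totals and not reported here.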

Additional observations from a re-analysis of the deposited data

How the results depend on the processing

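The number of genes called among all genes tested (2) was 206 with DESeq2, 5 on genes with at least 1 count, 4 with at least 10 counts in every sample, 12 with the length trend removed, 0 and 1 with limma on log2(FPKM + 1) and log2(FPKM + 0.1), 5 with limma on genes of a mean FPKM of at least 1, and 0 to 1227 when 1 library was left out. The replicate block gave 1, and 6 together with the length trend removed. Added to the edgeR test alone, the block changed no call of a subunit. Subunits at an adjusted p under 0.05 (0) numbered 1 with DESeq2 and 0 to 6 when 1 library was left out, the 6 being without AdSirt4 replicate 1. Those at an unadjusted p under 0.05 (4) numbered 10 with the length trend removed, where 2462 of 17720 genes passed. With the replicate block added to that there were 10 (LAMB1 and LAMA5 lost, ITGAV among those gained), where 2461 of 17720 genes passed. When 1 library was left out there were 1 to 13, with no share over all genes given except for the 13. The 13 were of 31 subunits tested without AdSirt4 replicate 1, where 4446 of 18287 genes passed. Subunits whose groups did not overlap (12) numbered 6, 6 and 5 in the 3 limma fits on FPKM. The limma fits without an FPKM minimum also took in subunits not tested in the main fit. Of these LAMB4 was apart, at 0.0114 to 0.0214 FPKM in AdCtrl and 0.00553 to 0.0100 FPKM in AdSirt4. The share over all genes is not given on the FPKM scale. The integrin median ranged from -0.1563 to -0.0129 when 1 library was left out.

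The direction of 22 of 30 subunits was the same in every alternative run, ITGB8, ITGB6, LAMB3, ITGA6 and ITGB4 among them. It turned for 8. With the length trend removed, the log2 fold change was 0.0420 for ITGA9, 0.0067 for ITGAX and 0.0053 for ITGB1, and with the replicate block as well 0.0463 for ITGA9 and 0.0041 for ITGB1. Leaving out 1 library gave ranges of -0.1938 to 0.1197 for ITGA9, -0.2181 to 0.1165 for ITGAX, -0.0469 to 0.0110 for ITGB1, -0.2249 to 0.0080 for ITGA3, -0.0345 to 0.1833 for ITGAV, -0.0674 to 0.4117 for ITGAE, -0.2142 to 0.1708 for ITGB3 and -0.0683 to 0.1125 for LAMA2. The cause was not tested. With 3 libraries a group, an exact permutation test cannot go below p = 0.1.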

Other observations

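Transcripts next to the subunit genes were also counted. ITGB8-AS1 was at 1.28 to 1.79 CPM in AdCtrl and at 5.34, 2.26 and 1.70 CPM in AdSirt4 replicates 1 to 3, so that the groups overlapped. ITGB1-DT, which starts beside ITGB1, was at 5.86 to 6.73 CPM in AdCtrl and at 9.73, 7.28 and 7.87 CPM in AdSirt4, and ITGA6-AS1 was at 0.156 to 0.235 CPM and 0.332 to 0.510 CPM. ITGA9-AS1 was at 0.895 to 1.25 CPM and 0.718 to 0.874 CPM.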
